A study of Homo sapiens with 12 samples.

Results

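The liver X receptors and the genes through which they respond to excess sterol were followed in the cell line hTERT-RPE1, derived from human retinal pigment epithelium and immortalised by telomerase. They comprise 6 of the 53361 genes in the table: the receptors NR1H2 (LXRβ) and NR1H3 (LXRα), the cholesterol transporters ABCA1 and ABCG1, the lipid carrier APOE and the ubiquitin ligase MYLIP. They were chosen by symbol for their place in the pathway, each symbol had 1 entry, and all 6 were among the 30712 genes tested. They and the gene lists used below were chosen with earlier results of these data known. Counts of called genes beside the share of all genes are therefore descriptions and not independent tests. RNA sequencing was done on 12 libraries, 3 from each group. Control cells were untreated. The other groups received 0.5 µM reversine for 24 h with harvest 48 h after washing, 0.1 µM bafilomycin A1 (BafA1) for 6 h, or 1 µM MG132 for 24 h. All cells were of the same line in the same medium with serum, which carries sterols of its own. No vehicle or time is given for the controls, so solvent and time in culture cannot be told apart from the drugs, and exposure times differ between the drugs. Reversine inhibits the mitotic kinase MPS1 and leaves cells with missegregated chromosomes, BafA1 blocks the proton pump of lysosomes, and MG132 inhibits the proteasome.

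Cells hold their free cholesterol within narrow limits through a pair of opposed programmes. When sterol is short, the SREBP transcription factors raise the enzymes of cholesterol synthesis and the uptake of lipoproteins. When sterol is in excess, its oxidised derivatives and the intermediate desmosterol bind the LXRs, which sit on DNA as heterodimers with a retinoid X receptor (RXR) at pairs of half-sites spaced by 4 bases (the DR4 element). The LXRs then raise ABCA1 and ABCG1, which pass cholesterol to extracellular lipoproteins, APOE, a lipoprotein component that takes it up, and MYLIP (also called IDOL), which marks lipoprotein receptors for degradation.

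The promoter of ABCA1 is shown because ABCA1 had the largest called difference of these genes and a DR4 element in this promoter is the textbook LXR site. The sequence is the RefSeq one (GRCh38.p14, a later build than that of the expression table), the 250 bases before the gene's start on the minus strand, chr9:104928156-104928405, read in the direction of the gene. Capitals mark an E-box (CACGTG) that begins at −147 relative to the start and the best match to a DR4, which begins at −69.
ABCA1 promoter: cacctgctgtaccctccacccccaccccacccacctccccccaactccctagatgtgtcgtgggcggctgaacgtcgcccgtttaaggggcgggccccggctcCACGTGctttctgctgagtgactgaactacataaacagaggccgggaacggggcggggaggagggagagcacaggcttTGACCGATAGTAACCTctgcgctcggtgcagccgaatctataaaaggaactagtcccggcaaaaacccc
The DR4 searched was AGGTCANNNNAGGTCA on both strands, with the 12 half-site bases compared and the best window kept. On the strand opposite to the gene the ABCA1 window reads as follows, with the half-sites in capitals.
ABCA1 DR4 window: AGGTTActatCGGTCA
It has 2 mismatches to the searched half-sites. A window with at most 2 mismatches occurs in 2.34% of 35116 RefSeq promoters of 300 bases, and an E-box in 7.26% of them. Of the 6 genes, 5 had promoter entries. The best windows of the others had at least 4 mismatches, so they hold no close DR4 within these bases. Distal elements, through which LXRs act on several of their targets, lie outside them. APOE had 3 promoter entries, and the best window of each had 4 mismatches. That of the first entry by position is shown for contrast, with its half-sites in capitals.
APOE best window: TGGTCAaaagACCTCT

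Values are FPKM (fragments scaled to transcript length and to the mapped reads of a library) as deposited. In this table many genes without reads are listed not at 0 but at a small value. That value depends on the length and number of their annotated transcripts and on the depth of the library. Genes at exactly 0 numbered from 889 in reversine 1 to 10150 in MG132 2. The level expected for each gene without any read, called the floor here, was estimated from transcript lengths and is given beside each level. By the floor, the depth relative to the deepest library was 0.738 to 1 in the controls, 0.677 to 0.822 in the reversine group, 0.563 to 0.697 in the BafA1 group and 0.645 to 0.866 in the MG132 group. The numbers of reads are unknown and counting intervals cannot be given. Relative to the mean library, MG132 2, MG132 3, reversine 1 and BafA1 3 showed lower values for GC-rich transcripts, and the other 8 showed higher ones (libraries are numbered within a group in record order, which pairs nothing). The markers of retinal pigment epithelium were largely silent: 6 of 9, among them RPE65, TYR and TTR, lay within 1.5 times their floor in every library. MITF averaged 13 FPKM, BEST1 1.24 (floor 0.539) and RLBP1 1.31 (floor 1.15). MERTK, a further marker counted here with the LXR targets instead, averaged 2.22 FPKM (floor 0.654). The markers of the cultured line VIM, KRT8, KRT18 and CDH2 were well expressed. Differences are log2 differences of FPKM + 1, which understate the change of weakly expressed genes. They were tested with limma over all 30712 genes and called at a Benjamini-Hochberg adjusted p under 0.05.

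In deposited FPKM the receptors were the most abundant of the 6 genes and their targets the least. NR1H2 ranged over the 12 libraries from 41.6 to 78.9 FPKM, NR1H3 from 10.9 to 17.4, ABCA1 from 1.6 to 8.25, APOE from 1.13 to 4.05, ABCG1 from 0.95 to 1.59 and MYLIP from 0.3 to 1.7. The floor was at most 0.371% of NR1H2. It made up 45.8% to 72.6% of NR1H3, 55.9% to 62.7% of ABCG1, 21.8% to 69% of APOE, 6.3% to 43.4% of MYLIP and 4.97% to 34.7% of ABCA1. The 34 short annotated transcripts of NR1H3, 440 to 2731 nt long, each add to its floor. Over the 12 libraries the ranges of APOE, ABCG1 and MYLIP crossed one another and that of ABCA1 crossed those of APOE and MYLIP, while those of NR1H2 and NR1H3 crossed no other.

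**Figure D1:**
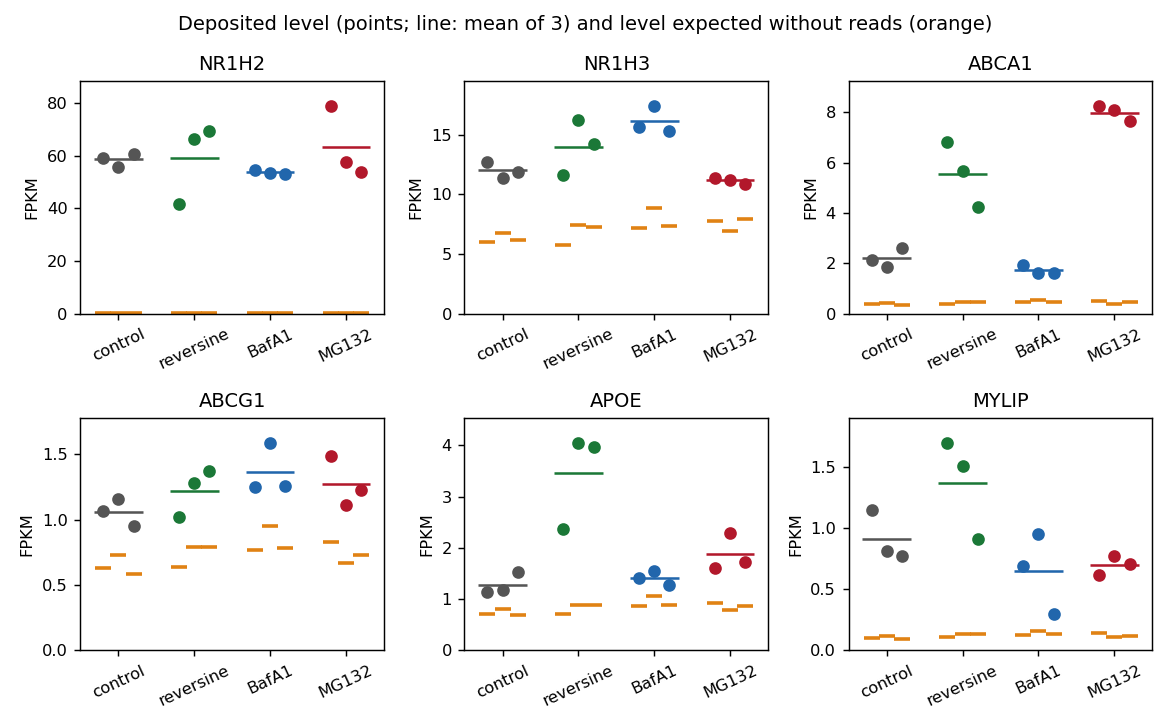
Deposited FPKM of NR1H2, NR1H3, ABCA1, ABCG1, APOE and MYLIP in the 3 libraries of each group (points; the line is the mean of 3), with the level expected without reads in orange. ABCA1 is higher in all reversine and MG132 libraries than in any control, APOE in all reversine libraries, and the points of ABCG1 stay close above their orange marks.

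LXRβ, the receptor found in most cell types, showed no called difference. NR1H2 (ENSG00000131408) was at 59, 55.9 and 60.8 FPKM in the controls, 41.6, 66.4 and 69.3 after reversine, 54.5, 53.6 and 53.1 after BafA1, and 78.9, 57.5 and 53.7 after MG132. The reversine and MG132 libraries lay on both sides of the controls, with 1 library of each far from the others. The 3 BafA1 libraries all lay just below the controls. The log2 difference from control was −0.02 after reversine (95% interval −0.49 to 0.44), −0.12 after BafA1 (−0.59 to 0.34) and 0.09 after MG132 (−0.37 to 0.56), with limma adjusted p of 0.955, 0.843 and 0.783. The transcripts of NR1H2 are GC-rich (63.2%), and a correction for GC content and transcript length moved the MG132 difference to 0.65 (adjusted p 0.000988), in a fit of 17909 genes of which 43% were called.

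LXRα, the receptor enriched in liver, fat and macrophages, was present at a lower level, and a large share of its deposited value was floor. NR1H3 (ENSG00000025434) was at 12.7, 11.4 and 11.9 FPKM in the controls, 11.6, 16.2 and 14.2 after reversine, 15.6, 17.4 and 15.3 after BafA1 and 11.4, 11.2 and 10.9 after MG132. All BafA1 libraries lay above the controls and all MG132 libraries just below the lowest control, while reversine overlapped them. The log2 differences were 0.19, 0.39 and −0.09 for reversine, BafA1 and MG132 (adjusted p 0.748, 0.478 and 0.7), so none was called. Above the floor the means were 5.7 ± 1.01 FPKM in controls, 7.15 ± 1.48 after reversine, 8.32 ± 0.321 after BafA1 and 3.64 ± 0.631 after MG132 (SD, n = 3). The ratio to control was then 1.46 for BafA1 and 0.639 for MG132, again without a call (adjusted p 0.564 and 0.129). NR1H3 overlaps ACP2, a lysosomal phosphatase gene on the opposite strand with a mean of 42.8 FPKM. No strand setting is stated, so reads from the overlap cannot be told apart.

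ABCA1, the transporter that loads cholesterol and phospholipid onto apolipoprotein A-I, rose after reversine and after MG132. ABCA1 (ENSG00000165029) was at 2.14, 1.84 and 2.61 FPKM in the controls and at 6.82, 5.65 and 4.23 after reversine. Every reversine library exceeded every control. The mean rose from 2.2 ± 0.388 to 5.57 ± 1.3 FPKM (SD, n = 3), a ratio of 2.53, and the log2 difference was 1.03 (SE 0.20, limma adjusted p 0.0316).
After MG132 the values were 8.25, 8.07 and 7.64 FPKM, closely grouped and above all libraries of the other treatments. The mean of 7.99 ± 0.313 was 3.64 times that of the controls (log2 difference 1.50, SE 0.20, adjusted p 0.00118). After BafA1 they were 1.94, 1.6 and 1.62 FPKM, overlapping the controls. The log2 difference was −0.23 with a 95% interval of −0.67 to 0.22 (adjusted p 0.733).
The floor of ABCA1 was small beside these levels, and above it the ratios to control were 2.83 for reversine, 0.679 for BafA1 and 4.15 for MG132. The MG132 call held under all 15 alternatives, with differences of 1.37 to 1.83. The reversine call held under 8 of 15 and its difference stayed between 0.89 and 1.29. It was lost in a fit of the 2 groups alone (adjusted p 0.24), without any 1 of the controls (0.149, 0.109 and 0.0623 for controls 1 to 3), without reversine 1 (0.0708) or reversine 2 (0.125), and without the 4 libraries whose values fell with GC content (0.0813).

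ABCG1, which passes cholesterol to particles that already hold lipid, stayed close to its floor. ABCG1 (ENSG00000160179) was at 1.07, 1.16 and 0.95 FPKM in the controls, 1.02, 1.28 and 1.37 after reversine, 1.25, 1.59 and 1.26 after BafA1, and 1.49, 1.11 and 1.23 after MG132. The value was 1.59 to 1.79 times the floor in all 12 libraries, with the floor summed over the 11 of 15 transcripts that have a known length and therefore a lower bound. The BafA1 libraries lay above all controls, and their floors, 0.771 to 0.955 FPKM, also lay above those of the controls, 0.585 to 0.728 FPKM. None of the log2 differences of 0.11, 0.20 and 0.14 for reversine, BafA1 and MG132 was called (adjusted p 0.774, 0.515 and 0.315). The 95% intervals were −0.11 to 0.32, −0.02 to 0.41 and −0.07 to 0.36. They hold for the deposited value, of which the smaller part was above the floor. The GC and length correction gave 0.41 for MG132 (adjusted p 0.00773).

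APOE, the apolipoprotein that takes up cellular lipid, rose after reversine. APOE (ENSG00000130203) was at 1.13, 1.18 and 1.53 FPKM in the controls and at 2.36, 4.05 and 3.97 after reversine. All reversine libraries lay above all controls, and reversine 1, the library in which values fell with GC content, was the lowest of the 3. APOE transcripts are GC-rich, with 68% GC. The mean rose from 1.28 ± 0.218 to 3.46 ± 0.953 FPKM (SD, n = 3), a ratio of 2.7 (log2 difference 0.95, SE 0.17, limma adjusted p 0.0249). Above the floor, which made up 44.9% to 68.6% of the value in the controls, the means were 0.545 ± 0.259 and 2.64 ± 0.851 FPKM, a ratio of 4.84.
After BafA1, APOE was at 1.41, 1.55 and 1.27 FPKM, overlapping the controls (0.08, adjusted p 0.901). After MG132 it was at 1.61, 2.29 and 1.72 FPKM. The MG132 libraries lay just above all controls, but the difference of 0.33 was not called (adjusted p 0.186). Above the floor the MG132 libraries overlapped the controls, and the GC and length correction gave 0.99 (adjusted p 0.0045). The reversine call held under 8 of 14 alternatives, with differences of 0.85 to 1.34. It was lost in a fit of the 2 groups alone (adjusted p 0.228), without any 1 of the controls (0.129, 0.109 and 0.067 for controls 1 to 3), and without reversine 2 (0.0961) or reversine 3 (0.0898).

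MYLIP, the ligase that removes lipoprotein receptors, was expressed at the lower limit of the analysis. MYLIP (ENSG00000007944) was at 1.15, 0.81 and 0.77 FPKM in the controls, 1.7, 1.51 and 0.91 after reversine, 0.69, 0.95 and 0.3 after BafA1, and 0.62, 0.77 and 0.71 after MG132. It reached 1 FPKM in exactly 3 libraries, 1 control and 2 of reversine, and so only just passed the filter on low values. The reversine libraries held the highest values but overlapped the controls. The log2 differences from control were 0.30, −0.23 and −0.16 for reversine, BafA1 and MG132, none of them called (adjusted p 0.461, 0.733 and 0.456).

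Of the 6 genes, 2 were called higher after reversine (ABCA1 and APOE), where 2.09% of all tested genes were called in either direction and 0.801% were called higher. After MG132, 1 of 6 was called higher, where the share among all genes was 14.8% in either direction and 7.14% higher, so this count lies near the background. After BafA1 0 of 6 were called by limma, where 0.264% of all genes were, and 1 of 6 (NR1H3) had an unadjusted p under 0.05, where 7.12% of all genes had. DESeq2 and edgeR were not run, since the table holds no counts. For reversine, BafA1 and MG132 the median log2 difference of the 6 was 0.25, −0.02 and 0.12, beside 0.09, 0.14 and 0.04 for all tested genes. Groups that did not overlap numbered 2 of 6 after reversine, 3 of 6 after BafA1 and 3 of 6 after MG132, where 20.1%, 23.1% and 33.9% of all tested genes were separated in this way. Leaving out the 4 libraries that fell with GC content gave 1 call after reversine (APOE), 0 after BafA1 and 1 after MG132.

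**Figure D2:**
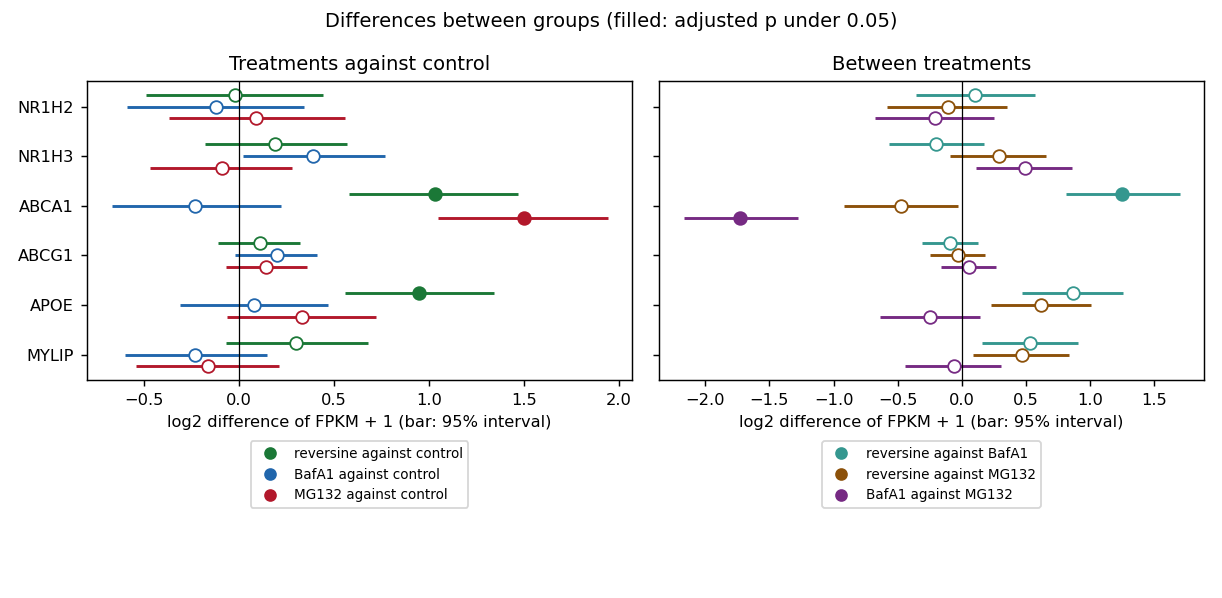
Log2 differences of FPKM + 1 with 95% intervals for the 6 genes, treatments against control on the left and treatments against each other on the right, with filled points where the adjusted p was under 0.05. Filled points occur for ABCA1 after reversine (1.03) and MG132 (1.50), for APOE after reversine (0.95), and for ABCA1 where BafA1 is compared with each of the others.

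The treatments were also compared directly, which asks whether their levels differ from one another. The controls enter these comparisons only through the spread, which is estimated from all 4 groups. ABCA1 was higher after reversine than after BafA1 by 1.25 on the log2 scale (SE 0.20, adjusted p 0.0177), the only called gene of the 6, where 1.23% of all genes were called. That call was lost without reversine 2 or any 1 of the BafA1 libraries (adjusted p up to 0.0962), in a fit of the 2 groups alone (0.115) and without the 4 libraries falling with GC content (0.113). APOE differed by 0.87 in the same comparison and missed the threshold (adjusted p 0.054). With the floor subtracted its difference was 1.27 and was called (adjusted p 0.029), as it was without reversine 1 (1.06, adjusted p 0.0123).
ABCA1 was lower after BafA1 than after MG132 by 1.73 (−1.73, SE 0.20, adjusted p 0.000632), a call that held under all 15 alternatives, and again the only 1 of 6, where 10.9% of all genes were called. NR1H3 was higher after BafA1 than after MG132 in every library, by 0.49 (adjusted p 0.103). The difference of its level above the floor was 1.01 and was called (adjusted p 0.0141). With the deposited values it was called without MG132 1 (0.50, adjusted p 0.0364) and in limma without trend (0.49, adjusted p 0.0392). The GC and length correction reduced it to 0.21 (adjusted p 0.244), and 12 of 15 alternatives gave no call.
Between reversine and MG132 none of the 6 was called, where 6.51% of all genes were. At an unadjusted p under 0.05 there were 3 of 6 (ABCA1, MYLIP and APOE), where 30.1% of all genes passed. ABCA1 was lower after reversine (−0.47, 95% interval −0.92 to −0.03, adjusted p 0.143). MYLIP (0.47, adjusted p 0.0922) and APOE (0.62, adjusted p 0.0731) had higher values after reversine. The libraries did not overlap for 4 of the 6 genes (these 3 and NR1H3), where 22.4% of all genes were separated in this way. MYLIP passed the filter on low values only through reversine 1, reversine 2 and control 1, so its part in both counts is not independent of that filter. The APOE difference was called without reversine 1 (0.81, adjusted p 0.00909), without MG132 1 (0.55, adjusted p 0.0391) and without the 4 libraries falling with GC content (0.94, adjusted p 0.0384), and under median-ratio scaling (0.74, adjusted p 0.0126). The GC and length correction reduced it to 0.18 (adjusted p 0.569), and 10 of 14 alternatives gave no call.

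LXRs act with RXR partners and with corepressors and coactivators. Of 12 listed partners and coregulators 11 were tested, and 0 were called by limma after reversine or BafA1 (2 and 0 at an unadjusted p under 0.05). RXRA was at 25.2 ± 0.992 FPKM in controls and 17.8 ± 4.35 after reversine (adjusted p 0.439), and RXRB was at 19.6 ± 3.95 and 18.5 ± 3.96. RXRG lay within 1.5 times its floor in every library. After MG132 2 fell and 9 were not called, where 14.8% of all tested genes were called. RXRA fell to 13.6 ± 4.14 FPKM (log2 difference −0.88, adjusted p 0.0388), a call that was lost without any 1 of the controls and without MG132 2 or MG132 3. Without the 4 libraries falling with GC content, which leaves 1 MG132 library, the RXRA difference was −0.43. With the GC and length correction it was −0.30 (limma adjusted p 0.0393), where 43% of all genes in that fit were called. The medians of the list for reversine, BafA1 and MG132 were −0.27, −0.04 and −0.21.

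The enzymes that make or consume the oxysterol ligands were scarcely expressed. Of 6 listed, 2 passed the filter, CYP46A1 and CYP11A1, and neither was called by limma in any comparison, with CYP46A1 alone under an unadjusted p of 0.05 after reversine (0.25, adjusted p 0.344) and after MG132 (0.23, adjusted p 0.113). CH25H, which makes 25-hydroxycholesterol, was between 0.08 and 0.43 FPKM, and CYP27A1, which makes 27-hydroxycholesterol, between 0.53 and 1.14. CYP7B1, which degrades oxysterols, lay within 1.5 times its floor in every library.

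Of 16 further LXR target genes 11 were tested, and 0 were called by limma after reversine, where 3 had an unadjusted p under 0.05 (median 0.24). The 3 with the smallest adjusted p were SCD, the stearoyl desaturase (0.73, adjusted p 0.132), MERTK, a phagocytic receptor (0.45, adjusted p 0.239), and PLTP, the phospholipid transfer protein (0.82, adjusted p 0.258). Without the 4 libraries falling with GC content 1 of the 11 was called, PLTP (1.14, adjusted p 0.035), and with the GC and length correction 2 were called higher, among them PLTP (0.93, adjusted p 0.00335), where 12.5% of all genes in that fit were called. After BafA1, 2 were called higher and 0 lower (median 0.46), where 0.264% of all tested genes were called. SCD rose from 98.2 ± 2.58 to 647 ± 154 FPKM (log2 difference 2.68, adjusted p 0.00131) and PNPLA3, a lipid droplet protein, from 10.4 ± 0.295 to 28.8 ± 1.24 (1.38, adjusted p 0.0151). Both are also targets of SREBP. The SCD call held without any 1 library, and the PNPLA3 call was lost without each of the 6 (adjusted p up to 0.109). SREBF1, which encodes SREBP-1 and is a classical LXR target, was at 101 ± 4.5 FPKM in controls and 190 ± 39.1 after BafA1, without a call (0.88, adjusted p 0.472).
After MG132, 1 of these targets was called higher and 3 lower (median −0.05), where 14.8% of all tested genes were called. MERTK rose by 0.70 (adjusted p 0.0148). PNPLA3 fell by 0.81 (adjusted p 0.0131) and SREBF1 fell by 0.96 to 53.1 ± 17.1 FPKM (adjusted p 0.0489). Without the 4 libraries falling with GC content, which leaves 1 MG132 library, MERTK, PNPLA3 and SREBF1 differed by 0.73, −0.63 and −0.47. With the GC and length correction they differed by 0.72, −0.58 and −0.48 (limma adjusted p 0.00797, 0.00227 and 0.00745). In that fit 43% of all genes were called. The MERTK call was lost without control 1 or MG132 3, the PNPLA3 call without control 3 or MG132 2, and the SREBF1 call without any 1 of 5 libraries. ABCA1 was thus called higher in the same comparison in which SREBF1 was called lower.

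The proteins that release, store and move cholesterol inside the cell gave 0 limma calls of 15 after reversine or BafA1 (4 and 3 at an unadjusted p under 0.05), with medians of 0.08 and 0.19. After reversine the smallest adjusted p belonged to NCEH1, a cholesteryl ester hydrolase, at 104 ± 10.8 FPKM in controls and 60.5 ± 6.96 (−0.77, adjusted p 0.0669), followed by LIPA, the lysosomal acid lipase, at 34.3 ± 0.856 and 55.9 ± 7.3 (0.68, adjusted p 0.0835), and CAV1, the caveolar coat protein that binds cholesterol, at 622 ± 7.8 and 406 ± 73.7 (−0.63, adjusted p 0.0835). CAV1 was called without the 4 libraries falling with GC content (−0.47, adjusted p 0.0127), the only call of the 15 there. It was 1 of 4 called with the GC and length correction (−0.67, adjusted p 0.0341), where 12.5% of all genes in that fit were called. After MG132, 1 was higher and 3 lower (median 0.03), where 14.8% of all tested genes were called. NPC1, which exports cholesterol from lysosomes, rose from 25 ± 1.15 to 110 ± 17 FPKM (log2 difference 2.08, adjusted p 7.2e-05). CAV1 fell from 622 ± 7.8 to 60.2 ± 11.7 FPKM (−3.36, adjusted p 5.21e-06), and NCEH1 fell to 40.8 ± 7.02 (−1.33, adjusted p 0.0012). These 3 held in every fit that left out 1 library. OSBPL5, an oxysterol-binding protein relative, fell by 0.92 (adjusted p 0.0461), a call lost without any 1 of 5 libraries (adjusted p up to 0.174).

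MYLIP acts on a family of lipoprotein receptors with the UBE2D conjugating enzymes. Of 9 listed substrates and partners 8 were tested, and 0 were called by limma after reversine, with 3 at an unadjusted p under 0.05. VLDLR, 1 of these receptors, was then at 7.19 ± 0.482 FPKM beside 8.21 ± 0.922 in controls (−0.17, adjusted p 0.814). After BafA1 VLDLR rose from 8.21 ± 0.922 to 20.9 ± 2.22 FPKM (log2 difference 1.25, adjusted p 0.0247), a call lost without each of the 6 libraries (adjusted p up to 0.175). In that comparison 2 of the 8 rose and 0 fell, with a list median of 0.02, where 0.264% of all tested genes were called. Of the 8, 1 rose without the 4 libraries falling with GC content. After MG132 1 rose and 3 fell, where 14.8% of all tested genes were called. UBE2D3 rose (0.69, adjusted p 0.0337). Among those that fell were VLDLR (−0.80, adjusted p 0.0154) and LRP8, another receptor of the family (−0.72, adjusted p 0.0383). The VLDLR call was lost without control 1 (adjusted p 0.074), and those of UBE2D3 and LRP8 without any 1 of 5 libraries (adjusted p up to 0.141 and 0.13). Without the 4 libraries falling with GC content, which leaves 1 MG132 library, VLDLR, LRP8 and UBE2D3 differed by −0.84, −0.72 and 0.36 after MG132. With the GC and length correction they differed by −0.92, −0.49 and 0.41 (limma adjusted p 0.00145, 0.0345 and 0.0265). In that fit 43% of all genes were called.

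**Figure D3:**
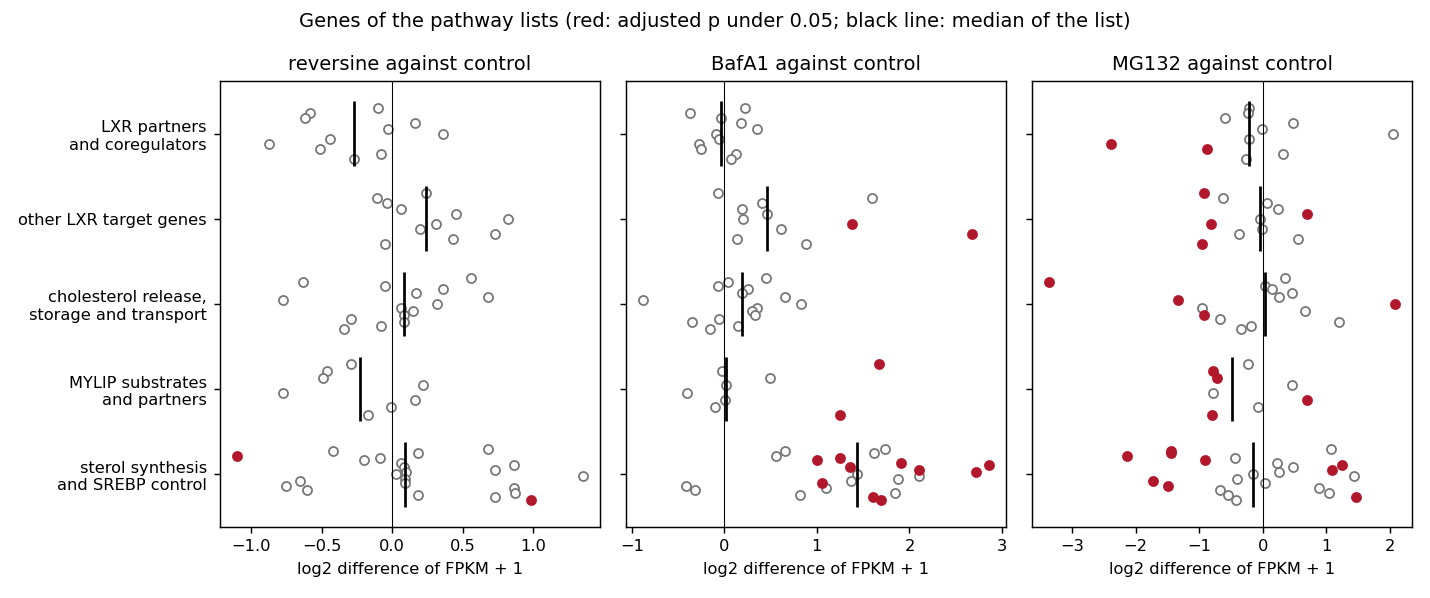
Log2 differences from control of FPKM + 1 for the tested genes of 5 lists (points; red where the adjusted p was under 0.05), with the median of each list as a black line. The sterol synthesis list lies to the right after BafA1, with a median of 1.43, and on both sides of 0 after reversine and MG132.

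The opposed arm, 23 genes of cholesterol synthesis and SREBP control, had only higher calls after BafA1 and calls in both directions after reversine and MG132. After BafA1, 10 rose and 0 fell, where 0.264% of all tested genes were called. The median log2 difference was 1.43 beside 0.14 for all genes. INSIG1, the sterol sensor that retains SREBPs, rose from 51.7 ± 5.38 to 347 ± 18.6 FPKM (2.72, adjusted p 5.21e-05). HMGCS1, which makes the precursor of mevalonate, rose from 15.4 ± 2.12 to 121 ± 34.6 (2.86, adjusted p 0.00922). The INSIG1 call held without any 1 library, and that of HMGCS1 did not hold without BafA1 1, control 1 or control 3 (adjusted p up to 0.0697). Most of the other called genes lost their call without each of the 6 libraries (adjusted p up to 0.212). Without the 4 libraries falling with GC content 8 rose and 0 fell, and in a fit of the 2 groups alone 4 rose. ABCA1 and APOE showed no call in these same BafA1 libraries.
After reversine 1 of the 23 rose and 1 fell, with a median of 0.09, where 2.09% of all tested genes were called. TM7SF2, a sterol reductase, rose by 0.98 (adjusted p 0.039) and EBP, a sterol isomerase, fell (−1.10, adjusted p 0.0491), and neither call held when single libraries were left out. TM7SF2 was lost without any 1 of 5 and EBP without each of the 6 (adjusted p up to 0.18 and 0.219). INSIG1 and SREBF2 differed by 0.10 and 0.18, neither of them called (adjusted p 0.814 for both).
After MG132 3 rose and 6 fell, with a median of −0.16, where 14.8% of all tested genes were called. EBP (−2.13, adjusted p 0.000425), PMVK, phosphomevalonate kinase (−1.49, adjusted p 0.00129), and FDPS, farnesyl diphosphate synthase (−0.91, adjusted p 0.00283), fell in every fit that left out 1 library. STARD4, a cholesterol carrier, rose by 1.46 (adjusted p 0.00215). HMGCS1 rose by 1.25 (adjusted p 0.0281), a call lost without any 1 of 5 libraries. Without the 4 libraries falling with GC content, which leaves 1 MG132 library, EBP, PMVK and FDPS differed by −1.74, −1.28 and −0.67. STARD4 and HMGCS1 then differed by 1.21 and 0.62. The GC and length correction moved the median of the 23 to 0.11, with 4 higher and 6 lower, where 43% of all genes in that fit were called.

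Taken library by library, the median of the 23 synthesis genes relative to the control mean was 1.44 to 1.51 in the BafA1 libraries, where ABCA1 was at −0.29 to −0.11 and APOE at 0 to 0.17. In the MG132 libraries that median was −0.33 to −0.04 and ABCA1 was at 1.44 to 1.54. In the reversine libraries it was −0.33 in reversine 1 and 0.38 and 0.34 in the others, so it lay on both sides of the controls, while ABCA1 was at 1.30, 1.06 and 0.72 and APOE at 0.56, 1.15 and 1.13. The BafA1 libraries therefore combined the highest synthesis medians with ABCA1 values that overlapped the controls, and the reversine and MG132 libraries shared a higher ABCA1 without a common position of the synthesis genes. All these values share the same 3 controls.

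**Figure D4:**
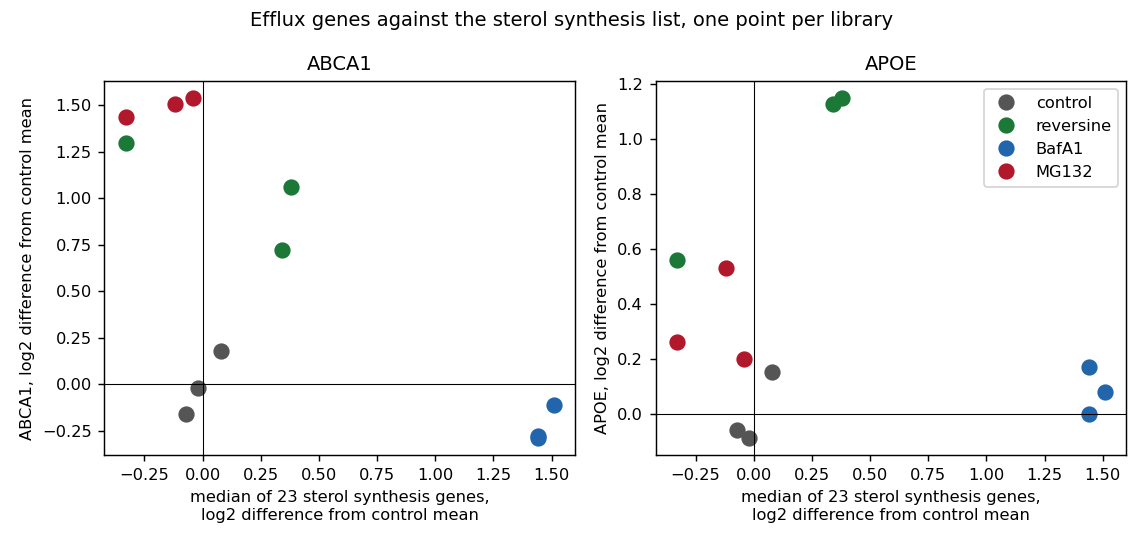
Each point is 1 library. The x axis is the median log2 difference from the control mean over the 23 sterol synthesis genes and the y axis that of ABCA1 (left) or APOE (right), both of FPKM + 1. The BafA1 libraries lie far right, near 1.5, and near the controls on the y axis, with BafA1 2 and BafA1 3 below them for ABCA1. The MG132 and reversine libraries lie above the controls for ABCA1.

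Between BafA1 and MG132, 17 of the 23 synthesis genes were higher and 0 lower after BafA1 (median 1.59), and ABCA1 was lower. Of all tested genes 10.9% were called there. Of the 11 further LXR targets 6 were higher and 0 lower in this comparison (median 0.63). Between reversine and BafA1, 11 of the 23 were lower and 0 higher after reversine (median −1.20) and ABCA1 was higher. Of all tested genes 1.23% were called there. In a fit of reversine and BafA1 alone 0 of the 23 were called by limma (17 at an unadjusted p under 0.05), and without the 4 libraries falling with GC content 9 were.

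The genes whose log2 values ran most like each member across the 12 libraries were taken from 23929 tested genes with a symbol and a mean of at least 2 FPKM, by Pearson correlation and as a description. For ABCA1 they were IRGQ (r = 0.99), CTTN, an actin-binding protein (0.98), and SEC61A1, a subunit of the translocation channel of the endoplasmic reticulum (0.96). SEC61A1 averaged 144 FPKM in controls, 206 with reversine, 126 with BafA1 and 236 with MG132, the same order of groups as ABCA1. For APOE they were the complement gene C3 (0.94) and the early response genes JUNB (0.94) and BTG2 (0.92), with BTG2 at 3.18, 17.3, 3.41 and 5.32 FPKM in the same order of groups. For NR1H3 they were ALDOC, an aldolase (0.96), PAOX, a polyamine oxidase (0.95), and RP11-108K14.4 (0.95). ALDOC averaged 3.66, 5.58, 12.4 and 2.28 FPKM. For NR1H2 they were SIRT6 (0.97), EEF1G (0.96) and ZNF579 (0.95). The genes most like MYLIP reached only 0.78 (C1orf170, TNFAIP3 and WLS). Those most like ABCG1 were OPRM1 (0.97), HLA-C (0.95, the entry ENSG00000228299) and GNLY (0.93), all of them at 1.79 to 2.94 FPKM. Libraries of a group share their treatment, and all values share each library's depth.

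Macrophages and hepatocytes are the cells in which these genes are best known, so their markers were read alongside. Of 10 macrophage markers 8 had a known floor and 3 lay within 1.5 times of it in every library, among them CD14. Of the 7 tested, 0 were called after reversine or BafA1. After MG132 1 was called lower and 0 higher, where 14.8% of all tested genes were called. Their sum per library was 116 to 145 FPKM in controls, 90.5 to 148 with reversine, 84.6 to 118 with BafA1 and 81.1 to 148 with MG132, most of it CD68 (mean 97.4), a lysosomal protein of many cell types. Of 6 hepatocyte markers 3 lay within 1.5 times their floor in every library, and the sum was 10.5 to 12.5 FPKM in controls, 10.4 to 12.9 with reversine, 12.8 to 15.7 with BafA1 and 13.4 to 24.7 with MG132.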

How the data were processed

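Total RNA of 12 libraries was selected with oligo(dT) and sequenced, per the labels' protocols. The authors aligned reads with Bowtie 1.0.0 and quantified them with RSEM 1.2.6 on the build hg19 (GRCh37), as the submitters' processing notes state. The deposited table names no unit, and its values were read as FPKM because library totals differ (962891 to 2057717) and values of genes without reads scale with transcript length. Whether a group's libraries are separate cultures is not said, so p-values reflect the spread among these libraries, which may be technical.

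From the deposited FPKM, log2(FPKM + 1) was fitted with limma 3.58.1 (R 4.3.3, trend) for genes reaching 1 FPKM in 3 or more libraries, in 1 fit of 4 groups (residual degrees of freedom 8, prior 1.26), with Benjamini-Hochberg adjustment over 30712 genes in each of 6 comparisons. The fit was tested on simulated data. The floor was fitted per library on single-transcript genes of silent families such as olfactory receptors, as a constant over transcript length less an offset, summed over the GENCODE v29 transcripts of a gene. It was checked on genes with several transcripts, where the 10th percentile of value over floor was 0.978 to 1.01 for 2 to 4 transcripts and 1.06 to 1.41 for 15 or more. Exact permutation tests of 3 against 3 libraries cannot go below p = 0.1 and decided nothing. The 6 genes and all lists were chosen with earlier results of these data known. Named genes were the 6 genes, up to 3 list members with the smallest adjusted p against control, all called members where there were 5 or fewer, the 3 genes most like each of the 6, and 8 fixed genes of the pathway. A few of the genes that this rule takes are not reported here, though the counts of their lists include them. Promoters came from RefSeq (GRCh38.p14), and no other coordinates were used because the builds differ. Reads shared with copies or overlapping genes are divided by estimation in RSEM and are uncertain. The alternatives were a pseudocount of 0.1, no filter or 5 FPKM, median-ratio scaling, fits of 2 groups, each library left out, the 4 libraries falling with GC content left out, a GC and length correction, limma without trend and, added after seeing the data, subtraction of the floor.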

Additional observations from a re-analysis of the deposited data

How the results depend on the processing

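ABCA1 after MG132 and ABCA1 between BafA1 and MG132 kept direction and call under all 15 alternatives, with limma adjusted p up to 0.0421 and 0.0233. The reversine calls of ABCA1 and APOE kept their direction everywhere and their call under 8 of 15 and 8 of 14. Of the 6 genes, 2 were called after reversine. The count was 1 with a filter at 5 FPKM, which leaves ABCA1, NR1H2 and NR1H3 to test, 0 in a fit of the 2 groups, 0 to 1 when each library was left out, and 1 without the 4 libraries falling with GC content. After MG132 it was 1, and 4 with the GC and length correction, under which 43% of 17909 genes were called (12.5% for reversine, 2.81% for BafA1, and 6.22%, 23.8% and 30.9% between reversine and BafA1, reversine and MG132, and BafA1 and MG132). Between reversine and BafA1 it was 1, with 2 under median-ratio scaling, the GC and length correction or the floor subtracted, 0 in a fit of the 2 groups and 0 to 2 when each library was left out. Between reversine and MG132 it was 0, with 1 under median-ratio scaling or without the libraries falling with GC content, 2 with the GC and length correction and 0 to 1 when each library was left out. Between BafA1 and MG132 it was 1, with 2 in limma without trend or with the floor subtracted, 3 with the GC and length correction and 1 to 2 when each library was left out. After BafA1 it was 0 throughout. The cause of these moves was not tested.

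Uncalled differences changed sign in a few settings. Under median-ratio scaling NR1H2 was −0.07 for MG132 against control and 0.06 for reversine against MG132, and ABCG1 was 0.06 for the latter. Without the 4 libraries NR1H2 was 0.21 for reversine against control, and for BafA1 against MG132 ABCG1 was −0.04 and MYLIP 0.16. With the GC and length correction NR1H2 was 0.12 for reversine against control, NR1H3 0.24 for MG132 against control and ABCG1 −0.18 for BafA1 against MG132. With the floor subtracted APOE was −0.05 for BafA1 against control and ABCG1 −0.00 for BafA1 against MG132. When each library was left out, NR1H2 ran from −0.15 to 0.21 for reversine against control, −0.07 to 0.20 for MG132 against control, −0.03 to 0.33 for reversine against BafA1 and −0.24 to 0.12 for reversine against MG132. ABCG1 ran from −0.09 to 0.03 for reversine against MG132 and −0.01 to 0.12 for BafA1 against MG132, and MYLIP from −0.20 to 0.10 for the latter.

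No paired analysis was possible because the labels give no replicate numbers or other pairing. Without the libraries falling with GC content MG132 keeps 1 library, which is assumed to vary like the other groups. Levels of ABCG1, APOE, MYLIP and NR1H3 are limited by the floor, and with 12 libraries of unknown read number smaller changes were not detectable.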
